A study of Mus musculus with 6 samples.

Results

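The 38 Hox genes described here belong to the Hoxa, Hoxb, Hoxc and Hoxd clusters of the mouse. A gene was taken as measured where the array annotation gave it at least 1 probe set that was assigned to no other gene, and where it had several, the one with the highest mean level was kept. By this rule 33 of the 38 genes were measured, among 18193 genes in all: 9 of the Hoxa, 9 of the Hoxb, 7 of the Hoxc and 8 of the Hoxd cluster. Hoxa6, Hoxc11 and Hoxc12 matched no probe set, 1 probe set of Hoxb8 and 2 of Hoxd4 were shared with other genes, and these 5 genes have no value below.

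RNA came from cells sorted for Flk1, the receptor encoded by Kdr, out of embryoid bodies at day 4 of differentiation. Embryoid bodies are floating aggregates in which embryonic stem (ES) cells form mesoderm, and Flk1+ cells of this stage include blast colony-forming cells, the culture counterpart of the haemangioblast that gives rise to blood and endothelium. The wild type group was 3 biological replicates from Ldb1+/+ ES cells and the knockout group 3 from Ldb1-/- ES cells, both grown without leukaemia inhibitory factor and without any other treatment named. Ldb1 is an adaptor that joins LIM-domain proteins and the blood factors Gata1 and Tal1 into DNA-bound complexes. The labels give no number of ES cell clones for either genotype, no strain and no deleted part of Ldb1, so the spread between arrays may be that between cultures of 1 line each. Each RNA was measured on 1 Affymetrix Mouse Genome 430 2.0 array.

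Hox genes encode homeodomain transcription factors and lie in 4 clusters that arose by duplication. The genes of a cluster are numbered 1 to 13, and genes of the same number in different clusters are paralogues. Low-numbered genes lie at the 3′ end of a cluster and are switched on first and furthest forward in the embryo, high-numbered genes later and further back. Retinoic acid induces the 3′ genes, Cdx factors the middle genes, and Polycomb and Trithorax proteins keep clusters silent or active. In mesoderm, Hox genes mark position along the body axis, and Hoxa9, Hoxb4 and their neighbours are also known from blood stem and progenitor cells.

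Values are log2 levels made by the authors with RMA, so a difference of 1 is a factor of 2; a level on 1 probe set says nothing of its level relative to another probe set. The median level of all probe sets was 5.75 and their lower quartile 4.28. Differences are knockout minus wild type. They were tested with limma in a fit without a replicate block and in a second fit with the replicate number as a block, since arrays of the same number varied together, and p-values were adjusted over all 18193 genes. Ldb1 read 7.78, 7.31 and 8.31 in the wild type and 7.25, 6.60 and 8.25 in the knockout, in replicate order, and the groups overlapped. Within pairs of the same number it was lower each time, by -0.53, -0.71 and -0.06, and it passed neither fit. This probe set does not check the labels, because the deleted part of the gene is not given. Kdr, the gene of the sort, read 12.4, 12.1 and 11.8 in the wild type and 12.2, 11.3 and 11.6 in the knockout, near the top of the scale in every array. It too was lower in each pair (-0.25, -0.81 and -0.20) and passed neither fit.

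Replicate 3 of the wild type stood apart from the other arrays in the spread of its values. Its upper quartile was 7.92, against 8.15 to 8.27 in the other 5 arrays, and its lower quartile was 4.37, against 4.22 to 4.28. The 18S ribosomal RNA control read 11.9 and 12.1 in the arrays of replicate 3 and 8.51 to 9.39 in the other 4. Among the 7002 genes not above the median level, this array was the highest of the 6 for 45.1%, and the median difference within replicate 3 was -0.20, against 0.06 and 0.05 within replicates 1 and 2. The main Hox results below are therefore given by replicate number as well.

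Of the 33 Hox genes, 28 were lower and 5 higher in the knockout, with a median difference of -0.13 and a range from -1.52 to 0.30. Over all 18193 genes the median difference was -0.01 and 53.7% were lower. Of all genes not above the median level 61.3% were lower, and of those above it 49.0%. Of the Hox genes 17 of 22 and 11 of 11 were lower, in the same order. Medians of these 11 by replicate number were -0.64, 0.03 and -0.70. Over all genes above the median level they were -0.05, -0.03 and 0.12. The size and direction depended on the replicate: the median of the 33 differences was 0.01 within replicate 1, -0.04 within replicate 2 and -0.51 within replicate 3. Without both arrays of number 3 the median was 0.03 and 15 of the 33 genes were lower. Without the wild type replicate 3 array alone it was -0.02, with 21 lower.

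No Hox gene passed an adjusted p of 0.05 in limma without the block, where 4 of all genes did (0.0220%, all lower, with 0.00% higher), and 8 Hox genes had an unadjusted p under 0.05 (3.85% of all genes did). With the replicate block 3 Hox genes fell and none rose, where 0.231% of all genes fell and 0.110% rose (0.341% in either direction), and 8 had an unadjusted p under 0.05 (8.94% of all genes). They were Hoxb2, Hoxb6 and Hoxd1. Without both arrays of number 1 the blocked limma fit kept Hoxb6 (adjusted p = 0.0477), while Hoxb2 (0.0511) and Hoxd1 (0.0679) missed the threshold, and with quantile normalization repeated Hoxb6 missed it (0.0647). The 3 wild type arrays lay wholly above the 3 knockout arrays for 7 Hox genes and wholly below them for 1, against 4.47% and 3.45% of all genes. Of these 7 genes, 5 were Hoxb genes of chromosome 11, where 190 of 1443 genes were lower without overlap. Lower values in all 3 pairs of the same number were found for 10 Hox genes, or 30.3%, against 14.9% of all genes. The 10 include the 7 without overlap, which are lower in every pair by definition. In all 3 pairs 1 Hox gene was higher, against 13.5% of all genes.

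The clusters did not share 1 pattern. All 9 Hoxb genes were lower in the knockout, with a median of -0.72, and all 8 Hoxd genes, with a median of -0.26. Of the Hoxa genes 6 of 9 were lower (median -0.09), and of the Hoxc genes 5 of 7 (median -0.10). By replicate number the Hoxb median was -0.97, -0.54 and -0.80 and the Hoxd median -0.32, -0.19 and -0.52, negative each time. The Hoxa median was 0.07, 0.18 and -0.36 and the Hoxc median 0.15, 0.09 and -0.38, so that only replicate 3 was negative in these 2 clusters. The difference between clusters was not tested, as each is a handful of neighbouring genes and not a set of replicates.

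**Figure D1:**
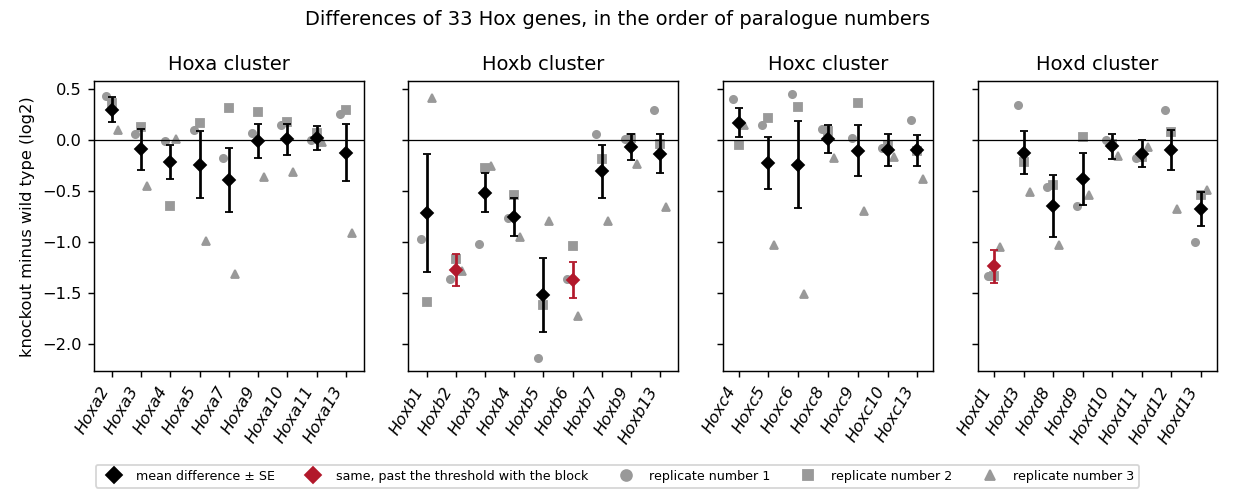
Mean log2 difference (knockout minus wild type, diamonds with SE, red where past the threshold with the block) of each measured Hox gene, in 1 panel a cluster and in the order of paralogue numbers, with the difference within each replicate number in grey. The lowest values are those of Hoxb2, Hoxb5, Hoxb6 and Hoxd1, between -1.24 and -1.52, while the Hoxa and Hoxc genes lie between -0.39 and 0.30.

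The Hoxb cluster, on chromosome 11, held the largest differences. Hoxb2, a paralogue 2 gene of hindbrain and neural crest patterning, read 9.09, 9.07 and 8.79 in the wild type and 7.73, 7.90 and 7.50 in the knockout. All 3 knockout arrays lay below the lowest wild type array. The mean difference was -1.28 (SE 0.16, n = 3 against 3), 2.42-fold lower, with an adjusted p of 0.148 in limma without the block and 0.0221 with it. Within the pairs it was -1.37, -1.17 and -1.29.

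Hoxb6, a middle gene of the cluster that is expressed in posterior and lateral mesoderm, read 5.86, 5.95 and 6.08 in the wild type and 4.50, 4.92 and 4.35 in the knockout. Again the groups did not overlap. The difference was -1.38 (SE 0.18), 2.60-fold, with limma adjusted p-values of 0.148 without and 0.0319 with the block. Its 1 probe set carries a suffix that the maker gives to sets matching several transcripts of 1 gene.

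Hoxb5 lies beside Hoxb6 and is known as a marker of posterior mesoderm and of blood stem cells. It had the lowest difference of all 33 genes. It read 6.34, 6.02 and 4.88 in the wild type and 4.20, 4.41 and 4.08 in the knockout. Every wild type value was above every knockout value, but the wild type values spread widely (SD 0.77), with replicate 3 lowest. The difference of -1.52 (SE 0.37), 2.87-fold, missed the threshold, with limma adjusted p-values of 0.667 without and 0.0893 with the block. It was -1.95 without the wild type replicate 3 array. Knockout replicates 1 and 3 lay under the lower quartile of all probe sets (4.28), so the array's floor may limit the size of this difference.

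Hoxb4, which expands blood progenitors when overexpressed, read 6.84, 6.69 and 6.53 in the wild type and 6.07, 6.15 and 5.58 in the knockout, again without overlap. Its difference was -0.75 (SE 0.19), with limma adjusted p-values of 0.694 without and 0.120 with the block. Hoxb3, the gene on its 3′ side, read 6.81, 6.47 and 6.26 against 5.79, 6.19 and 6.01. These groups were apart by a small margin, and the difference of -0.52 (SE 0.19) missed the threshold in both limma fits (adjusted p = 1.00 and 0.456).

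Hoxb1, the first gene of the cluster and a direct target of retinoic acid receptors and of Hox-Pbx pairs, varied widely between arrays. It read 9.88, 8.78 and 8.11 in the wild type and 8.91, 7.19 and 8.53 in the knockout. The groups overlapped, and the knockout was lower in replicates 1 and 2 and higher in replicate 3. The difference was -0.72 with SDs of 0.90 and 0.91 (n = 3 each; limma adjusted p = 1.00 without and 0.644 with the block), and with 1 array left out it ran from -1.12 (wild type replicate 3 left out) to -0.24 (wild type replicate 1) and -0.20 (knockout replicate 2).

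The 5′ genes of the cluster differed little. Hoxb7 read 4.31, 4.53 and 5.29 in the wild type and 4.37, 4.34 and 4.49 in the knockout, a difference of -0.31, and wild type replicate 3 was the highest array. Hoxb9 and Hoxb13, posterior genes, differed by -0.07 and -0.13, and their 12 values lay between 3.97 and 5.38, below the median of all probe sets. The mean of Hoxb9, 4.06, lay under the lower quartile of all probe sets, where a small fall cannot be told from the array's floor. That of Hoxb13, 5.07, lay above it. The 5 genes without overlap, Hoxb2 to Hoxb6, were neighbours in the middle and 3′ part of the cluster. Groups that do not overlap differ the same way in every pair by definition, so the pairs add nothing for these 5. The median over the 4 Hoxb genes above the median level was -0.73.

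**Figure D2:**
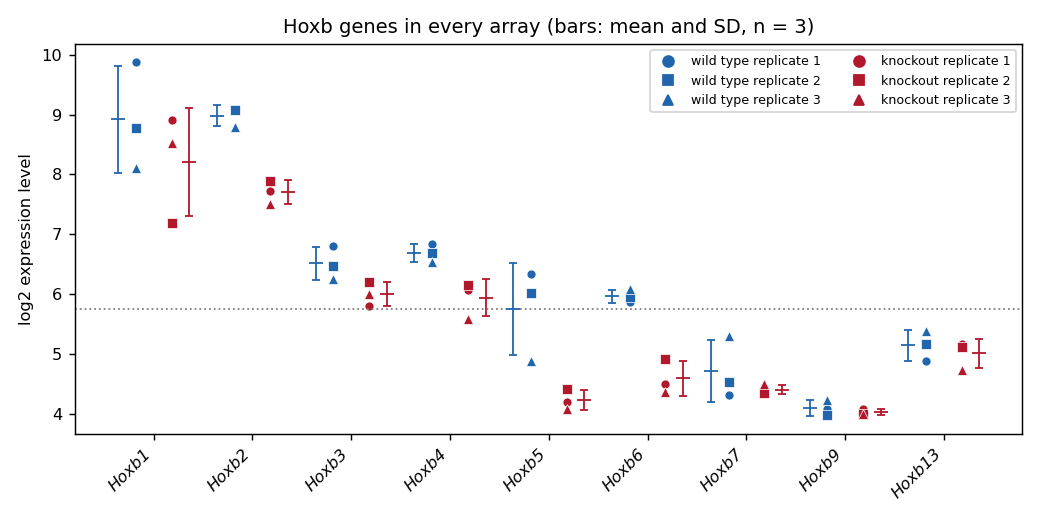
Log2 RMA levels of the 9 measured Hoxb genes in each array, wild type (blue) and knockout (red), with 1 marker shape a replicate number, bars for the mean and SD (n = 3) and a dotted grey line at the median of all probe sets (5.75). For Hoxb2, Hoxb3, Hoxb4, Hoxb5 and Hoxb6 the 3 knockout points lie below the 3 wild type points, whereas the points of Hoxb1, Hoxb7, Hoxb9 and Hoxb13 overlap.

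The promoters of Hoxb4 and Hoxb1 are printed to set a gene whose groups stood apart beside a more variable gene of the same cluster. They are the 250 bases before the start of each gene, from RefSeq on mouse build GRCm38.p6, plus strand, at chr11:96318017-96318266 and chr11:96365508-96365757. Capitals mark matches on either strand to 4 patterns: GATAA (bound by Gata factors), CANNTG (the E-box of Tal1 and its relatives), CCAAT (the CCAAT box) and a Pbx-Hox composite site (TGAT, any base, GAT, any base, G). Overlapping matches run together in 1 capital run.
Hoxb4: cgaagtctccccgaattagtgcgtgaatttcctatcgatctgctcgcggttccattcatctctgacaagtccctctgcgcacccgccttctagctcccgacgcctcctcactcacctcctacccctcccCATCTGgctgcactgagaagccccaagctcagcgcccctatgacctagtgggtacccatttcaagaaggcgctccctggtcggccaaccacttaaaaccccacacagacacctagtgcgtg
Hoxb1: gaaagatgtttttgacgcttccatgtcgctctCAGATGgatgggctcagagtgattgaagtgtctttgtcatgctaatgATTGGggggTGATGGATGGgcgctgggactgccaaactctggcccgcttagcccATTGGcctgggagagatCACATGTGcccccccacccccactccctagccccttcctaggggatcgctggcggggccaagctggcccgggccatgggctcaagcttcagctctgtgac
Hoxb4 held 1 E-box and Hoxb1 held 3, of which 2 overlap. Hoxb1 also held 2 CCAAT boxes and 1 Pbx-Hox composite site. Of 32851 promoters of this length, 66.2% held the E-box, 33.8% the CCAAT box, 22.6% GATAA and 0.478% the composite site, and neither window here held GATAA. A match is a run of letters and not a bound site, and no binding was measured. RefSeq promoters were matched for 22 of the 38 listed genes, 19 of them measured; Hoxb2, Hoxb5 and Hoxb6 were not among them.

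Genes around the Hoxb cluster give its setting. Of the 20 measured genes nearest to it, 10 on each side, 14 were lower in the knockout, with a median of -0.16. In the separate context list of Hoxb neighbours 13 of 15 measured genes were lower, with a median of -0.23. The lists of neighbours of the other clusters had 4 of 9 lower for Hoxa, 10 of 11 for Hoxc and 3 of 9 for Hoxd. Their medians were 0.09, -0.06 and 0.02. Chromosome 11 as a whole was lower: the median over its 1443 measured genes was -0.17 and 80.4% were lower. The medians were -0.01 on chromosome 2, -0.01 on chromosome 6 and -0.03 on chromosome 15, which hold the Hoxd, Hoxa and Hoxc clusters. On chromosome 8 the median was 0.15. On chromosome 11, 190 of the 1443 genes were lower without overlap, against 5 of the 9 Hoxb genes. In all 3 pairs 41.3% of the chromosome's genes were lower, also against 5 of the 9 Hoxb genes. Among its genes above the median level the median was -0.23 and 86.2% were lower. Relative to the median of its chromosome the Hoxb median was -0.55, and Hoxb2 was -1.11, Hoxb5 -1.35 and Hoxb6 -1.21. Among the 1443 genes, Hoxb5 was the 4th lowest by difference, Hoxb6 the 9th and Hoxb2 the 11th. The subtraction used the median over genes of all levels. The part of the shift along chromosome 11 in the Hoxb values was not tested beyond this subtraction.

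Skap1, an adaptor of T cell receptor signalling and the next measured gene after Hoxb1, was as low as the Hoxb genes. It read 6.44, 6.81 and 5.96 in the wild type and 4.65, 5.43 and 4.36 in the knockout, without overlap. The difference was -1.59, with limma adjusted p-values of 0.467 without the block and 0.0175 with it, so that it fell in the blocked fit. Snf8, an endosomal sorting component gene on the other side, was the only other of these 20 genes without overlap, at -0.39, and passed neither fit. Hoxb5os, an RNA antisense to the Hoxb5 region, had values of 5.58, 5.71 and 6.10 in the wild type and 5.83, 5.78 and 5.23 in the knockout, which overlapped; it was singled out after its values were seen.

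**Figure D3:**
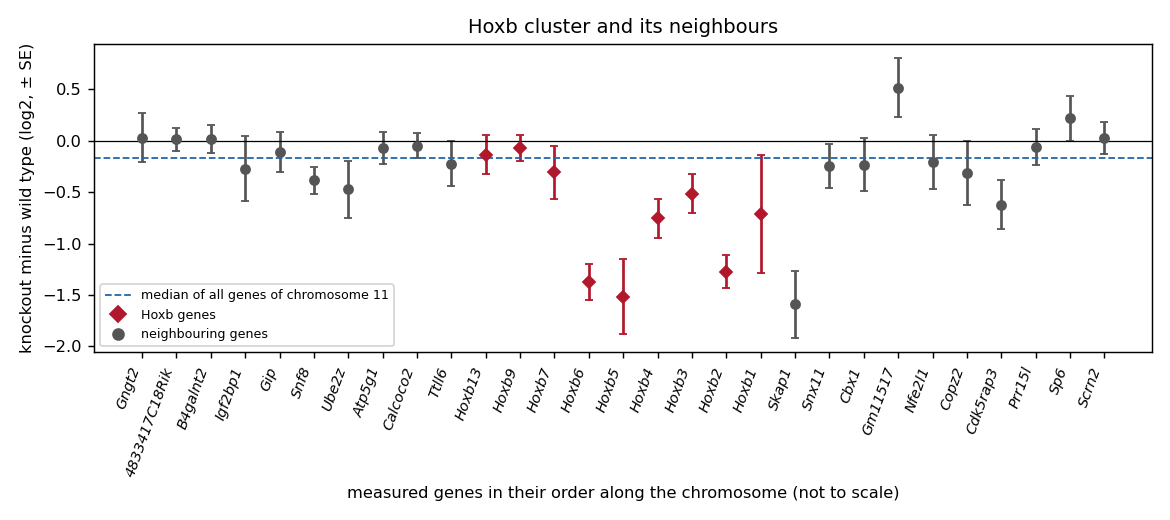
Log2 differences (knockout minus wild type, with SE) of the 9 measured Hoxb genes (red diamonds) and of the 10 nearest measured genes on either side (grey points), in their order along the chromosome and not to scale, with a dashed line at the median of chromosome 11 (-0.17). The points from Hoxb6 to Skap1 lie between -0.52 and -1.59, and the other neighbours between -0.62 and 0.52.

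In the Hoxd cluster, on chromosome 2, the groups did not overlap for 1 gene at each end, Hoxd1 and Hoxd13. Hoxd8, between them, overlapped between groups, but its difference of -0.65 was close to the -0.68 of Hoxd13. Hoxd1, the paralogue of Hoxb1 and a 3′ gene, read 7.43, 7.51 and 7.04 in the wild type and 6.10, 6.18 and 5.99 in the knockout. The knockout values lay close together (SD 0.10) and below all wild type values. The difference was -1.24 (SE 0.16), 2.36-fold, with limma adjusted p-values of 0.153 without and 0.0238 with the block, and within pairs it was -1.33, -1.33 and -1.05.

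Hoxd13, the last gene of the cluster and a regulator of digit and urogenital development, read 5.77, 5.38 and 5.23 in the wild type and 4.76, 4.85 and 4.74 in the knockout. There was no overlap. The difference was -0.68 (SE 0.17), with limma adjusted p-values of 0.689 without and 0.192 with the block.

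Hoxd8 and Hoxd9, middle genes of the cluster that are expressed in trunk mesoderm, were lower in most pairs and overlapped between groups. Hoxd8 read 5.96, 6.25 and 5.70 in the wild type and 5.50, 5.80 and 4.67 in the knockout. The knockout value was below that of the same number each time, with a mean difference of -0.65 (limma adjusted p = 1.00 without and 0.254 with the block) that was -0.32 when knockout replicate 3 was left out. Hoxd9 read 7.73, 7.76 and 7.40 against 7.09, 7.79 and 6.86, a difference of -0.38 that ran from -0.66, with knockout replicate 2 left out, to -0.19, with knockout replicate 3 left out.

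The other 4 Hoxd genes, Hoxd3, Hoxd10, Hoxd11 and Hoxd12, differed by -0.06 to -0.13. All their means were below the median of all probe sets. Among the 1399 genes of chromosome 2, Hoxd1 was the 5th lowest by difference, Hoxd13 the 12th and Hoxd8 the 17th. Of the 20 nearest measured genes to the cluster 8 were lower, with a median of 0.02. Rbm45, an RNA-binding protein gene among them, was higher by 0.38 without overlap and passed neither fit.

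The promoters of Hoxd1 and Hoxd13, from the 2 ends of the cluster whose groups stood apart, are shown by the same rules: 250 bases before the gene start, GRCm38.p6, plus strand, at chr2:74762730-74762979 and chr2:74667975-74668224, with capitals for the 4 patterns.
Hoxd1: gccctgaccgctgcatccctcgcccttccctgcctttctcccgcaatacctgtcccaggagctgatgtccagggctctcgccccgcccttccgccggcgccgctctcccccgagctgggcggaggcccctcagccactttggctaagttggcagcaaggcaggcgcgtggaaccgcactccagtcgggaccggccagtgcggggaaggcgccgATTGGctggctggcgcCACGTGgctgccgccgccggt
Hoxd13: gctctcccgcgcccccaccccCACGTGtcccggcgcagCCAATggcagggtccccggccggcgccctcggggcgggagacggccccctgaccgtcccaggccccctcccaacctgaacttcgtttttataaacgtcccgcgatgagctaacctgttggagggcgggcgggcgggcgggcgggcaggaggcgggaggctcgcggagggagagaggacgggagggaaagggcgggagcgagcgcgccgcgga
Both windows held the same E-box sequence, CACGTG, once, and 1 CCAAT box each. In neither did GATAA or the composite site occur. Their GC content was 71.6% and 74.4%, against 58.0% for Hoxb4 and 59.2% for Hoxb1. The pattern CANNTG leaves its middle bases open, so a match such as CACGTG names no single factor, Tal1 included.

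In the Hoxa cluster, on chromosome 6, wild type replicate 3 was the highest array for 5 of the 9 genes: Hoxa3, Hoxa5, Hoxa7, Hoxa9 and Hoxa13. Hoxa5, a regulator of lung and cervical skeleton development, read 7.28, 7.36 and 8.51 in the wild type and 7.38, 7.52 and 7.52 in the knockout. Hoxa7, a middle gene that is active in early blood progenitors, read 7.10, 6.84 and 8.04 against 6.92, 7.16 and 6.73. In each, replicate 3 of the wild type was the highest of the 6 arrays and the other 5 were close together.

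The differences of these genes followed that array. Hoxa5 differed by -0.24, and by 0.16 without wild type replicate 3. Hoxa7 differed by -0.39, and by -0.03 without it. Hoxa3, a pharyngeal arch gene, read 5.80, 5.78 and 6.42 in the wild type and 5.86, 5.90 and 5.97 in the knockout and differed by -0.09, and by 0.12 without that array.

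Hoxa9, a leukaemia-associated regulator of blood stem cells, was level in the 2 groups on its kept probe set. It read 6.37, 6.15 and 6.70 in the wild type and 6.44, 6.42 and 6.34 in the knockout. The difference was -0.0039 with an SE of 0.17. The other Hoxa9 probe set differed by -0.21 (-0.15, -0.12 and -0.37 by replicate number). None of the 9 Hoxa genes passed either fit; the lowest adjusted p in limma with the block was 0.606.

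Hoxa2, a hindbrain and second pharyngeal arch gene, was the only Hox gene that was higher in all 3 knockout arrays than in any wild type array. It read 3.09, 3.18 and 3.31 in the wild type and 3.52, 3.54 and 3.42 in the knockout, a difference of 0.30 (limma adjusted p = 1.00 without and 0.606 with the block). The values were all below the lower quartile of all probe sets. Hoxa4, Hoxa10 and Hoxa11 differed by -0.22, 0.01 and 0.02 at mean levels of 3.64 to 4.50, and Hoxa13 by -0.12. Around the cluster 10 of the 20 nearest measured genes were lower (median 0.0028); Skap2, a Src kinase substrate gene next to it, was higher by 0.40 and Jazf1 differed by -0.20, each without overlap, and neither passed.

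In the Hoxc cluster, on chromosome 15, wild type replicate 3 was the highest array for 4 of the 7 genes: Hoxc5, Hoxc6, Hoxc9 and Hoxc13. Hoxc6, a gene of the trunk and thorax, read 5.17, 5.23 and 6.78 in the wild type and 5.62, 5.56 and 5.27 in the knockout, a difference of -0.24 (SE 0.43). Hoxc9, a thoracic gene and the only Hoxc gene above the median level, read 7.03, 6.79 and 7.76 against 7.06, 7.15 and 7.07, a difference of -0.10 that was 0.18 without wild type replicate 3. For both, wild type replicate 3 was the highest array, and the wild type arrays of replicates 1 and 2 were below the knockout arrays of the same number.

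Hoxc5 followed, at 5.19, 5.05 and 5.89 against 5.34, 5.27 and 4.86, and differed by -0.22. Hoxc4, Hoxc8, Hoxc10 and Hoxc13 differed by 0.17, 0.01, -0.10 and -0.10 at mean levels below 4.8. None of the 7 genes passed either limma fit (lowest adjusted p with the block 0.881). Nfe2, a blood transcription factor gene that is the 4th measured gene beyond the cluster, fell in the blocked fit by 1.15 on the log2 scale (limma adjusted p = 0.756 without the block and 0.0334 with it). Of the 20 nearest genes 15 had a negative difference (median -0.06), and Gpr84, a fatty acid receptor gene, differed by -0.37 without overlap.

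**Figure D4:**
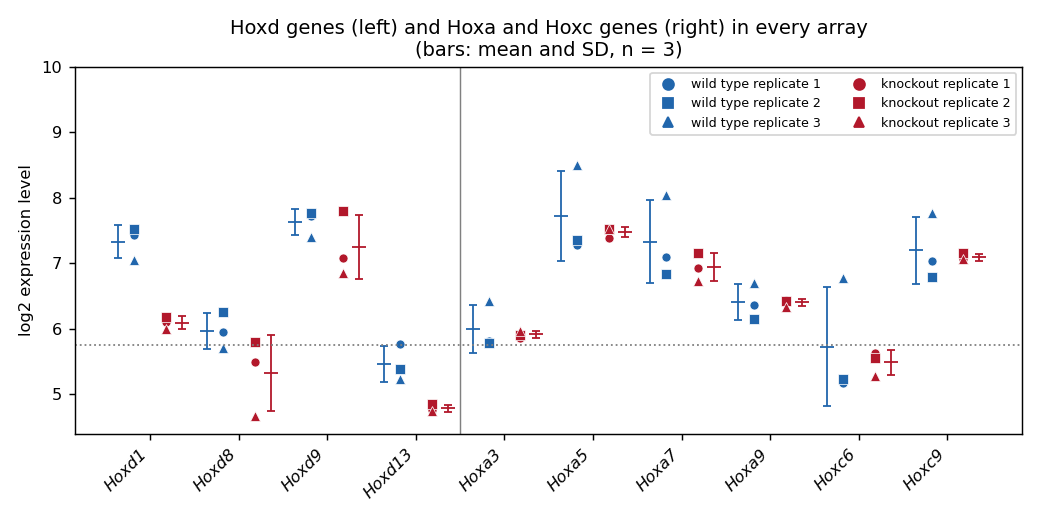
Log2 RMA levels of named Hoxd, Hoxa and Hoxc genes in each array, wild type (blue) and knockout (red), with 1 marker shape a replicate number, bars for the mean and SD (n = 3) and a dotted grey line at the median of all probe sets (5.75). For Hoxd1 and Hoxd13 the groups lie apart, while for Hoxa5, Hoxa7, Hoxc6 and Hoxc9 the single high point is wild type replicate 3.

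Over all 33 genes the 2 arrays of replicate 3 held most extremes. Wild type replicate 3 was the highest array for 14 Hox genes (42.4%) and the lowest for none, and knockout replicate 3 was the lowest for 17 (51.5%) and the highest for none. Over all genes the same arrays were highest for 25.1% and lowest for 23.7%; among genes not above the median level, where 22 of the 33 Hox genes lie, for 45.1% and 32.3%, and among genes above it for 12.6% and 18.4%. Of the 7 genes that stood apart and were lower in the knockout, Hoxb6 was highest in wild type replicate 3, whereas Hoxb2, Hoxb3, Hoxb4, Hoxb5, Hoxd1 and Hoxd13 were higher in wild type replicates 1 and 2 than in replicate 3. Knockout replicate 3 was the lowest array for all of these 7 except Hoxb3.

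By position in the cluster, the 7 measured genes of paralogues 1 to 3 had a median of -0.52, the 12 of paralogues 4 to 8 a median of -0.27 and the 14 of paralogues 9 to 13 a median of -0.10. By replicate number these medians were -0.97, -0.28 and -0.45 for paralogues 1 to 3, 0.03, -0.12 and -0.97 for paralogues 4 to 8, and 0.02, 0.03 and -0.37 for paralogues 9 to 13. The middle and posterior medians thus came mainly from replicate 3, and within replicate 3 the middle genes and not the front genes were lowest. Groups without overlap, lower in the knockout, were 3, 3 and 1 in number. The order is also not separate from level, because 5 of the 7 front genes, 3 of the 12 middle genes and 3 of the 14 posterior genes were above the median level. Within a paralogue number the clusters differed: for number 2, Hoxb2 was at -1.28 and Hoxa2 at 0.30; for number 5, Hoxb5 was at -1.52, Hoxa5 at -0.24 and Hoxc5 at -0.22; for number 6, Hoxb6 was at -1.38 and Hoxc6 at -0.24. Paralogue 9, measured in all 4 clusters, ranged from -0.38 in Hoxd9 to -0.0039 in Hoxa9, and paralogue 13, also measured in all 4, from -0.68 in Hoxd13 to -0.10 in Hoxc13.

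Further probe sets, 15 in number, measured 11 of the genes, and 12 of them had the same sign as the kept one. The 3 of opposite sign were 2 of Hoxa3, at 0.05 and 0.07 against -0.09, and 1 of Hoxc5, at 0.06 against -0.22. The other Hoxb3 probe set differed by -0.86, with 5.90, 5.86 and 5.37 in the wild type and 5.05, 4.89 and 4.62 in the knockout, so that its groups did not overlap either. The other Hoxd8 set differed by -0.73 (-0.62, -1.13 and -0.43 by replicate number). Those of Hoxb4 and Hoxd13 differed by -0.23 (0.05, -0.16 and -0.57) and -0.24 (-0.28, -0.19 and -0.25), less than the -0.75 and -0.68 of the kept sets. Hoxb2, Hoxb5, Hoxb6 and Hoxd1 had 1 probe set each, so no second measurement of them exists on the array.

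Regulators and partners of Hox genes were read from short lists. Of 9 Hox cofactors (the Pbx, Meis and Prep genes) 8 were measured, 4 were lower, and none passed either fit. Meis1, whose protein binds DNA with Hox proteins, read 6.90, 6.02 and 5.38 in the wild type and 4.97, 4.20 and 4.67 in the knockout, without overlap, a difference of -1.49 (limma adjusted p = 0.761 without and 0.0910 with the block). All 6 Cdx and ParaHox genes were measured and 3 were lower, none past the threshold; Cdx4, which activates middle Hox genes in blood-forming mesoderm, differed by -0.56 and was lower in all 3 pairs (limma adjusted p = 0.226 with the block). Pdx1, a ParaHox gene of the pancreas, differed by -0.33 without overlap.

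Of the 9 Trithorax and demethylase genes 2 were lower, and of the 16 measured Polycomb genes 11, and none of either list passed. Bmi1, a Polycomb gene needed for blood stem cell self-renewal, was higher by 0.81 without overlap (limma adjusted p = 0.659 without and 0.176 with the block). Cbx8, another Polycomb gene, differed by -0.29 and Ash2l, a Trithorax gene, by 0.35, also without overlap. Medians over the Trithorax and Polycomb lists were 0.08 and -0.07. Of the 10 measured posterior axis regulators 6 were lower, with a median of -0.08, and none passed.

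The retinoic acid list held 2 genes that fell in the blocked fit, of 14 measured, of which 9 were lower (median -0.11). Aldh1a2, the main enzyme of retinoic acid synthesis in the embryo, read 5.89, 5.90 and 6.04 in the wild type and 4.53, 4.41 and 4.15 in the knockout. It fell by 1.58 on the log2 scale, with limma adjusted p-values of 0.0542 without and 0.0194 with the block. Crabp1, a cytosolic retinoic acid binding protein gene, read 9.41, 9.29 and 8.95 against 7.05, 7.91 and 7.59 and fell by 1.70, with limma adjusted p-values of 0.182 without and 0.0401 with the block. Neither overlapped between groups. Cyp26a1, which degrades retinoic acid and is itself induced by it, read 12.68, 12.44 and 12.76 against 11.86, 10.95 and 12.49; it was lower in all 3 pairs and passed neither fit.

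Markers of the cells that a Flk1+ sort can hold moved beside the Hox values. Of 10 blood genes 9 were lower, with a median of -1.10; 5 fell in limma with the block and 1 without it, and the summed linear level ran from 1977 to 2313 in the wild type and from 533 to 754 in the knockout. Of 10 cardiac mesoderm genes 8 were lower (median -0.47), with sums of 6264 to 12030 against 4843 to 5502, and 1, Hand2, fell in the blocked fit. Of 10 paraxial mesoderm genes 8 were lower (median -0.23), with sums of 762 to 1383 against 614 to 891, which overlapped.

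Of the other lists, primitive streak genes were mostly higher, endoderm genes were mostly lower, and the rest were mixed in direction. Of 12 haemangioblast and endothelium genes 5 were lower (median 0.02), with sums of 10848 to 14151 against 12275 to 19069; of 10 pluripotent cell genes 5 were lower (median 0.09), with sums of 9729 to 10662 against 8572 to 19339; and of 9 primitive streak genes 1 was lower (median 0.23). In the pluripotent list Dppa5a rose by 1.20 in the blocked fit (limma adjusted p = 0.148 without and 0.0315 with the block), and 3 genes, Dppa5a, Zfp42 and Tfcp2l1, were higher without overlap. Of 10 endoderm genes 9 were lower (median -0.18) and of 10 neural ectoderm genes 3 (median 0.09). The part of these markers in the Hox differences was not tested, and in RNA of a whole sorted population fewer cells of a type and less RNA per cell cannot be told apart.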

How the data were processed

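Flk1+ cells of day 4 embryoid bodies were measured on 6 Affymetrix arrays, 3 of Ldb1+/+ and 3 of Ldb1-/- origin. Per the submitters' processing notes, the deposited log2 values were made by the authors with RMA and the affy package, versions not given in the sources used here. RMA compresses differences of dim probe sets. The deposited table held 45101 probe sets, of which 64 were controls, 34945 matched 1 gene, 932 several and 9160 none in the platform annotation.

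Per gene the probe set with the highest mean was kept (18193 genes). limma 3.58.1 in R 4.3.3 (lmFit and eBayes, Benjamini-Hochberg over all genes, threshold 0.05) compared the groups without a block, and in a second fit with the replicate number as a block. Deviations from the group means of same-numbered arrays correlated at 0.70, 0.35 and 0.45 over all genes, each above the limit of 0.1, so the numbers were taken to pair the arrays; the pairing comes from the titles and this check. Over the 33 Hox genes these correlations were 0.33, 0.21 and -0.02. Both limma fits were also run on simulated data with independent normal errors. Those data held neither the distinct spread of wild type replicate 3 nor the shift along chromosome 11, so they do not bear on these. All members are reported; values by array are given for members past the threshold in either fit, without overlap between groups or with a mean above the median of all probe sets, and for others where stated. From each context list the genes past the threshold or without overlap are named, with a few others of high level. The members and all 18 lists (10 of context, 8 of markers) were chosen with earlier results of these data known. With 3 arrays a group, the number of arrays limits the precision. Alternatives were other filters, normalizations, probe set rules, variance models, array weights and arrays left out.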

Additional observations from a re-analysis of the deposited data

How the results depend on the processing

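The number of Hox genes past the threshold, 0 without the block, was 3 with the replicate block (Hoxb2, Hoxb6, Hoxd1) and 4 with array weights. It was 0 in every other unblocked setting, each single array left out included. The block gave 1 without both arrays of number 1 (Hoxb6), 4 without number 2, 8 without number 3 and 3 with the mean over probe sets. Over all 18193 genes these 4 settings called 50, 267, 815 and 48. The block on all arrays called 62 of all genes, and array weights without the block 68. In blocked settings chosen after seeing the data the number of Hox genes was 2 with the filter at the median level and 2 with repeated quantile normalization. It was 2 without probe sets of suffix _x_at, _s_at or _a_at, 4 with a trended and robust variance and 7 with array weights. Over all genes these settings called 55 (of 11191 tested), 26, 50 (of 16591), 264 and 517, in the same order. Of 33 genes, those lower numbered 28, but 18 with array weights, 17 with block and weights, 15 without number 3 (with the block, or without it as chosen after seeing the data) and 11 of 11 at the median filter (with or without the block); with 1 array left out they numbered 21 to 31. The Hoxd median was -0.81 at the median filter (2 genes, with or without the block), -0.65 at the lower quartile filter, and -0.42 to -0.19 with 1 array left out. Without both arrays of number 3, with or without the block, Hoxa3 turned to 0.091, Hoxa5 to 0.13, Hoxa7 to 0.069, Hoxa9 to 0.17 and Hoxc9 to 0.19. Array weights gave 0.10, 0.10, 0.10, 0.21 and 0.26, and block with weights 0.038, 0.025, no turn, 0.12 and 0.11. Relative to its chromosome Hoxa9 was 0.0036. With 1 array left out, Hoxa3 ran from -0.20 to 0.12, Hoxa5 from -0.46 to 0.16, Hoxa9 from -0.13 to 0.14 and Hoxc9 from -0.31 to 0.18, each highest without wild type replicate 3. In all, 15 genes kept their direction in every setting. The cause of these shifts was not tested. Signal near the floor limits the 9 of 33 genes whose mean lay under the lower quartile, and the knockout side of Hoxb5.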
